A study of Mus musculus with 198 samples.

Results

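The genes described here encode the chains of the collagens and laminins. They were taken by name, as every gene row of a table of 8 deeply sequenced mouse cortex libraries whose symbol is Col, a number, a and a number, or Lam, a letter a, b or c and a number, with a value in all 8 libraries. All 54 rows that match have those values, out of 34193 gene rows: 43 collagen genes and 11 laminin genes. Methylation values, not expression, were measured, so the description of these genes as mostly silent in neurons could not be checked against transcripts. The animals were C57BL/6J mice of 8 weeks, 4 heterozygous for a knockout of Dnmt3a and 4 wild type, with 2 males and 2 females in each group. Littermates provided the tissue, per the labels' protocols. The labels call the allele Heterozygous KO and give no further detail of it. The whole series holds 198 bisulfite libraries, of which these 8 carry values per gene. Each library is from bulk cortex DNA, so a change in methylation within cells and a change in the mix of cells cannot be told apart.

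DNMT3A is an enzyme that adds methyl groups to unmethylated DNA, and in maturing neurons it methylates cytosines followed by adenine as well as those followed by guanine. Methylation at CA (mCA) accumulates in neurons after birth and is scarce in most other cell types. Methylation at CG (mCG) is high in gene bodies of most tissues and is copied at cell division by DNMT1. Collagens are trimers with a triple helix and make up fibrils, networks and filaments outside cells. Laminins are cross-shaped trimers of an alpha, a beta and a gamma chain, and with collagen IV they form the basement membranes that in brain lie around vessels and under the pia. In the brain these proteins come largely from vascular, perivascular and meningeal cells, with some from astrocytes.

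The stretches just upstream of 4 genes at the ends of the measured range are shown here to let the sequence context be compared with the methylation of the gene. They come from RefSeq promoters of mouse GRCm38.p6, 5′ to 3′ on the gene's strand, with every CG in capitals. Of the 54 genes, 40 had a promoter entry, and in 18 of them at least 200 of the 250 bases before the start lay outside every annotated gene. Among those 18, Col6a3 had the highest and Lamb2 the lowest wild-type mCA, and Col3a1 the highest and Col8a2 the lowest wild-type mCG. The windows are Col6a3 at chr1:90844002-90844221 on the minus strand, Lamb2 at chr9:108479612-108479846 on the plus strand, Col3a1 at chr1:45311288-45311537 on the plus strand and Col8a2 at chr4:126286544-126286793 on the plus strand.
Col6a3: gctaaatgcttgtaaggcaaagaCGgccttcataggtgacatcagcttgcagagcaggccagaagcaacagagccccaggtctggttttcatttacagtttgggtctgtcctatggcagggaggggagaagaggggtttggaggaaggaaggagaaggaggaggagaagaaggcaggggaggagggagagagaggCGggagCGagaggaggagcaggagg
Lamb2: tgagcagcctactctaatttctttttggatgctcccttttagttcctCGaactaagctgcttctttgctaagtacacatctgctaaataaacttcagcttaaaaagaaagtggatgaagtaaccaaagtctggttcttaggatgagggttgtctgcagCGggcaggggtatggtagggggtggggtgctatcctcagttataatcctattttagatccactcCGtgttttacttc
Col3a1: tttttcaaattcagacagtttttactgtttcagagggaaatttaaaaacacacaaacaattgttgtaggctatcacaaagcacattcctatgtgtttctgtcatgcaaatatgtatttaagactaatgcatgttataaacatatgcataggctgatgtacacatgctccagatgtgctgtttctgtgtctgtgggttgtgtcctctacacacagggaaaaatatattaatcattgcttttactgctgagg
Col8a2: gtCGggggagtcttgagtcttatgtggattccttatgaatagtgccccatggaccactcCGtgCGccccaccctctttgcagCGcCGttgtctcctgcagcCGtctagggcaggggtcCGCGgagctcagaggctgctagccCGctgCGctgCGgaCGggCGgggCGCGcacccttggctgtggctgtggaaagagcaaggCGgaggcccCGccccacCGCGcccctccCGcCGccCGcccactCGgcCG
The Col8a2 window holds 24 CG and the Col3a1 window holds 0, while Col6a3 and Lamb2 hold 3 each. Counted on both strands, as CA or TG, CA occurs 24 times in the Col6a3 window, 25 in Lamb2, 50 in Col3a1 and 29 in Col8a2. Over all 32851 promoters in the RefSeq table the median 250-base window holds 6 CG and 34 CA, and 92.1% hold at least 1 CG. Those background windows were not trimmed to bases outside genes, whereas the ones shown were, which left 220 bases in Col6a3 and 235 in Lamb2. These letters describe the windows only: the deposited values are 1 per gene and library, and methylation in the windows was not measured separately. The deposited values were made on the mm9 build, and the bounds of the region averaged for each gene are not given in the sources used here.

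Averaged over the 54 genes, mCA was 3.28% ± 0.317 (SD, n = 4) of CA cytosines in wild-type and 1.79% ± 0.147 (SD, n = 4) in heterozygous cortex. The same mean over all genes was 2.21% and 1.25%, so the collagen and laminin genes stood at 149% ± 4.08 of the all-gene mean in wild type and 143% ± 3.90 in heterozygotes. At CC, a context with little known methylation in brain, shallow cortex libraries of 6 of the same animals read 0.272 to 0.381%. Among the wild-type libraries, female replicate 3 gave the highest mCA in 48 of the 54 genes, and among the heterozygous ones female replicate 3 did so in 47. Labelled coverage was 6.4 to 7.8-fold per library. The tables hold fractions without read counts, so the depth behind each gene is unknown and no counting interval is given.

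mCA fell in heterozygous cortex in 53 of the 54 genes, all 43 collagens and 10 of 11 laminins, and rose in 0 (limma, adjusted p under 0.05). Across all 21302 genes tested, 72.1% were called lower and 0.0329% higher. The heterozygous mean was lower in 54 of 54 genes, against 97.1% of all genes. The median difference was -1.45 percentage points over the 54 genes and -0.91 over all genes. In 51 of the 54 genes all 4 heterozygous animals lay below all 4 wild-type animals, against 64.6% of all genes. The exceptions were Col4a5, Col4a6 and Lamb2. Both heterozygous males lay below both wild-type males in 53 of the 54 genes (83.5% of all genes), Lamb2 being the exception, and both heterozygous females below both wild-type females in all 54 (76.3%). When each library's median gene was subtracted first, 41 of the 54 were called lower and 1 higher (Lamb2), and over all genes 5283 were lower and 6523 higher instead of 15369 and 7. This subtraction is in points, so under an equal kept share genes high in wild type come out lower and low ones higher. Lamb2, at 0.855% in wild type, would have a positive centred difference even if it fell to 0%. These centred calls are therefore no test of a gain or of an extra loss. The direction of these falls is therefore given on the unadjusted percent scale, and Lamb2 and Col6a2 changed sign on the centred one.

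**Figure D1:**
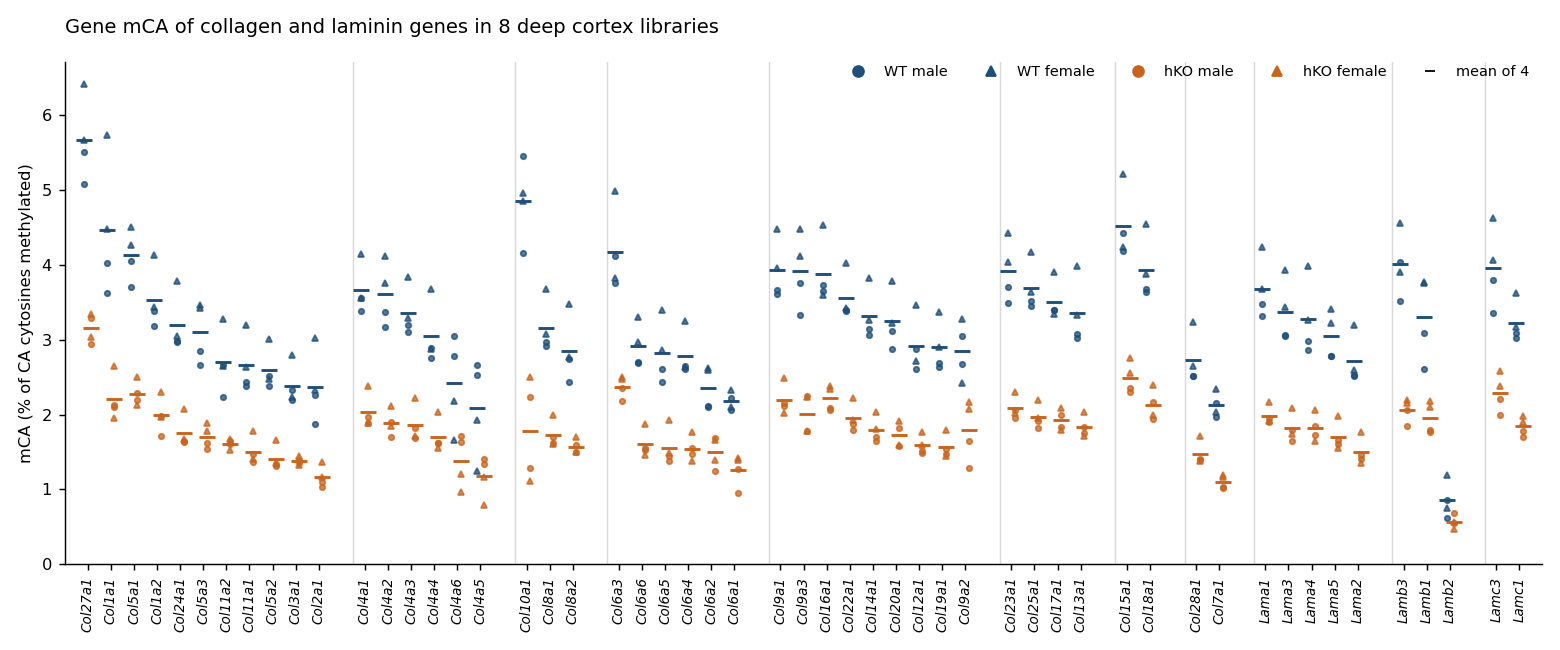
mCA of 53 of the 54 genes, in percent of CA cytosines, in every animal (circles, males; triangles, females; blue, wild type; orange, heterozygous; bars, means of 4 animals). Vertical lines separate, from left to right, fibrillar collagens, collagen IV, short-chain network collagens, collagen VI, FACIT collagens, transmembrane collagens, multiplexins, other collagens and the laminin alpha, beta and gamma chains. Heterozygous points lie below the wild-type points in each gene shown except Col4a5, Col4a6 and Lamb2, and Lamb2 stands lowest in both genotypes.

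Fibrillar collagens form the banded fibrils of skin, bone, tendon and cartilage. All 11 measured genes of this class fell, with wild-type means from 2.37 to 5.67% and heterozygous means from 1.16 to 3.15%. Col27a1, a fibrillar chain of cartilage, had the highest mCA of the 54 genes. Its values in single animals, given here and below in the order males 1 and 2 then females 3 and 4, were 5.51, 5.08, 6.41 and 5.67% in wild type and 3.29, 2.94, 3.34 and 3.03% in heterozygotes. The groups were well apart, with a difference of -2.52 points (SE 0.357, adjusted p = 0.000692). Col1a1, the chain present in more copies in type I collagen, read 4.02, 3.62, 4.47 and 5.73% against 2.09, 2.13, 2.64 and 1.95%. It had the widest wild-type spread of the 54 genes in points (SD 0.914), with female 4 the highest, and fell by 2.26 points (SE 0.430, adjusted p = 0.00146). Its partner Col1a2 had a lower mean, 3.53 against 4.46% in wild type, and was the lower of the pair in 7 of 8 animals. Col5a1, which starts and limits fibril growth, read 3.71, 4.05, 4.50 and 4.26% against 2.19, 2.29, 2.50 and 2.13%, a fall of 1.85 points (SE 0.239, adjusted p = 0.000692). At the low end was Col2a1, the main collagen of cartilage, with 2.26, 1.88, 3.02 and 2.33% against 1.04, 1.10, 1.36 and 1.17%. Both ranges of Col2a1 lay below every value of Col27a1 in the same genotype.

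Collagen IV is the network-forming collagen of basement membranes, and its 6 genes sit in head-to-head pairs that share a short stretch between their starts. All 6 fell, and the 4 autosomal ones did so with no overlap between genotypes. Col4a1 and Col4a2 encode the chains found in nearly every basement membrane, brain vessels included, and lie next to each other on chromosome 8. Col4a1 read 3.38, 3.56, 4.15 and 3.56% in wild type and 1.89, 1.97, 2.38 and 1.89% in heterozygotes, a difference of -1.63 points (SE 0.234, adjusted p = 0.000692). For Col4a2 the values were 3.17, 3.37, 4.12 and 3.76% against 1.90, 1.70, 2.11 and 1.84%. The levels of these neighbours were close, with a mean difference of 0.0564 ± 0.188 points (SD) in wild type and Col4a1 higher in 6 of 8 animals. Col4a3 and Col4a4, chains of the kidney filter and other specialised membranes, averaged 3.36 and 3.05% in wild type and 1.86 and 1.70% in heterozygotes. Col4a3 was the higher of that chromosome 1 pair in 8 of 8 animals.

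The third pair, Col4a5 and Col4a6, is on the X chromosome, and it was split by sex. Col4a5 read 2.66 and 2.53% in wild-type males but 1.92 and 1.25% in wild-type females, and 1.34 and 1.41% in heterozygous males against 1.16 and 0.795% in heterozygous females. Col4a6 read 3.04 and 2.78% in wild-type males, 2.18 and 1.66% in wild-type females, 1.64 and 1.72% in heterozygous males and 1.20 and 0.969% in heterozygous females. Within each sex the heterozygous animals lay below the wild-type ones, and the overlap of the genotypes arose between heterozygous males and wild-type females. The genotype difference was -0.91 points for Col4a5 (SE 0.307, adjusted p = 0.0230) and -1.03 for Col4a6 (SE 0.315, adjusted p = 0.0150). With sex as a term in the fit the adjusted p was 0.00488 and 0.00134. The Col4a5 call was lost without wild-type replicate 1 (-0.72 points, adjusted p = 0.0590), wild-type replicate 2 (-0.77, 0.0601) or heterozygous replicate 4 (-0.79, 0.0643). In females only the adjusted p was 0.244 for Col4a5 and 0.129 for Col4a6, and with library medians subtracted it was 0.996 and 0.791.

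With genotype in the model, the female minus male difference was -0.70 points for Col4a5 (unadjusted p = 0.0099, limma) and -0.79 for Col4a6 (unadjusted p = 0.0023, limma). The other 52 genes, all autosomal, had higher mean mCA in females in 52 of 52, by a median of 0.319 points. A lower female mean was thus seen in 2 of the 54 genes, against 15.8% of all genes. Without wild-type replicate 3 it was seen in 5 of the 54, and in 7570 of all genes instead of 3364. The median difference over the 54 was then 0.172 points instead of 0.318, and it was 0.404 without heterozygous replicate 4. Among heterozygotes, female 4 had a mean of 1.71% over the 54 genes, against 1.73 and 1.71% in the males. No sex difference of the 54 genes passed the adjusted threshold (smallest adjusted p = 0.376, limma). At an unadjusted p under 0.05 there were 6: Col4a5, Col4a6, Col5a3, Col6a5, Lamb1 and Lamc3. That count was 13 without heterozygous replicate 4 (3222 of all genes, instead of 1910) and 3 without wild-type replicate 1 (1087). Across all genes 0.0% passed and 8.97% were under 0.05 unadjusted with no animal left out. The same direction by chromosome was seen over all genes: 80.3% of 801 X-linked genes had a lower female mean (median difference -0.31 points), against 12.3% of 16757 autosomal genes (median 0.189). The female libraries are also those whose protocol text also names a NextSeq500, so sex and sequencing cannot be told apart. The genotype difference itself was not shown to depend on sex in any of the 54 genes (smallest unadjusted p = 0.138 for the interaction, limma; 3.41% of all genes were under 0.05 and 0.00939% passed after adjustment).

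**Figure D2:**
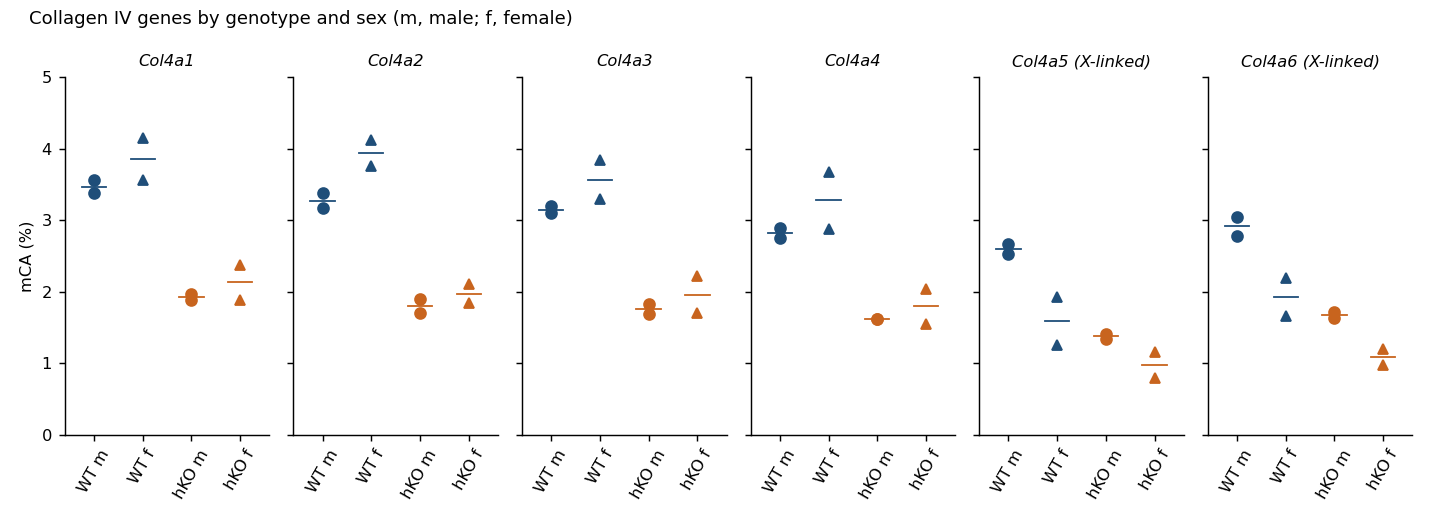
mCA in percent of CA cytosines of the 6 collagen IV genes, by genotype and sex (points, animals, 2 per column; lines, means). In the 4 autosomal genes the female mean is above the male mean within each genotype, and in the X-linked Col4a5 and Col4a6 it is below.

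Short-chain collagens build sheet-like networks. Col10a1, the collagen of hypertrophic cartilage, showed the largest fall of the 54 genes in points. Wild-type animals read 5.46, 4.15, 4.85 and 4.96% and heterozygotes 2.23, 1.29, 2.51 and 1.11%, a difference of -3.07 points (SE 0.398, adjusted p = 0.000692). The heterozygous values ran from 1.11 to 2.51% (SD 0.688), and all 4 stayed below the wild-type range. In the RefSeq annotation Col10a1 overlaps another coding gene, Nt5dc1. Col8a1 and Col8a2, chains of the basement membrane of the corneal endothelium, had wild-type means of 3.16 and 2.85% and heterozygous means of 1.73 and 1.57%, and Col8a1 was the higher in 8 of 8 animals.

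Collagen VI forms beaded filaments around cells of muscle, fat and nerve. All 6 genes fell, from wild-type means of 2.18 to 4.17%. Col6a3, the longest chain, read 3.76, 4.12, 4.99 and 3.82% against 2.35, 2.18, 2.50 and 2.47%, a fall of 1.80 points (SE 0.301, adjusted p = 0.000872). Its usual partners Col6a1 and Col6a2 lie side by side on chromosome 10 and had the lowest levels of the class. Col6a1 read 2.06, 2.23, 2.10 and 2.33% against 0.950, 1.28, 1.41 and 1.39%, and Col6a2 read 2.11, 2.10, 2.63 and 2.59% against 1.68, 1.25, 1.67 and 1.40%. Col6a3 was above both in 8 of 8 animals. The Col6a2 call was lost in males only (adjusted p = 0.0528) and in females only (0.0617), the Col6a1 call in females only (0.132), and both with library medians subtracted. The other chains, Col6a4, Col6a5 and Col6a6, are neighbours on chromosome 9 and had nearly equal wild-type means of 2.78, 2.83 and 2.91%.

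FACIT collagens decorate the surface of other fibrils rather than forming their own. All 9 measured genes fell, from wild-type means of 2.85 to 3.93%. Col9a1, a chain of the collagen IX that coats cartilage fibrils, read 3.61, 3.66, 4.48 and 3.96% against 2.11, 2.15, 2.49 and 2.02%, a fall of 1.74 points (SE 0.254, adjusted p = 0.000692). Col9a3, another collagen IX chain, read 3.75, 3.33, 4.48 and 4.11% against 1.78, 2.25, 2.23 and 1.78%, with a fall of 1.91 points (SE 0.284, adjusted p = 0.000692). The remaining chain, Col9a2, was the lowest of the class in wild type, with 3.05, 2.67, 3.27 and 2.42% against 1.64, 1.28, 2.07 and 2.17%. Its heterozygous females were above its heterozygous males, and its fall of 1.06 points had a higher adjusted p, 0.00583 (SE 0.266). Col9a1 and Col19a1 are neighbours on chromosome 1, and Col9a1 was the higher in 8 of 8 animals.

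Transmembrane collagens span the cell membrane and can be shed. All 4 genes fell, with wild-type means from 3.35% (Col13a1) to 3.92% (Col23a1) and heterozygous means from 1.83 to 2.09%. Col25a1, known to be made by neurons, was inside that range at 3.69% ± 0.324 against 1.97% ± 0.160 (SD, n = 4). Col17a1, of the hemidesmosomes that fix skin cells to their basement membrane, had 3.51% ± 0.265 against 1.92% ± 0.141 (SD, n = 4). The multiplexins Col15a1 and Col18a1, basement membrane collagens that release endostatin-like fragments, had higher means of 4.51 and 3.93% in wild type and 2.49 and 2.12% in heterozygotes. Col15a1 read 4.42, 4.18, 5.21 and 4.24% against 2.36, 2.30, 2.76 and 2.55%, a fall of 2.02 points (SE 0.289, adjusted p = 0.000692). Col7a1, the anchoring fibril of skin, and Col28a1 were lower, with wild-type means of 2.13 and 2.73%.

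All 5 laminin alpha chain genes fell, with wild-type means between 2.71 and 3.68%. Lama1, the alpha chain of early embryonic and pial membranes, was the highest, with 3.32, 3.48, 4.24 and 3.67% against 1.95, 1.90, 2.16 and 1.92%. Lama2, the alpha chain of muscle and of astrocyte and vessel membranes, was the lowest, with 2.53, 2.52, 3.20 and 2.60% against 1.40, 1.46, 1.77 and 1.35%. The difference was -1.70 points for Lama1 (SE 0.237, adjusted p = 0.000692) and -1.21 for Lama2 (SE 0.206, adjusted p = 0.000901), and neither gene's genotypes overlapped.

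Among the other laminin genes, Lamb3, a beta chain of skin basement membranes, had the highest mCA of the beta chains. It read 4.03, 3.52, 4.56 and 3.90% against 2.07, 1.84, 2.19 and 2.15%, a fall of 1.94 points (SE 0.255, adjusted p = 0.000692). Lamc1, the gamma chain of most laminins, read 3.09, 3.03, 3.62 and 3.17% against 1.79, 1.71, 1.99 and 1.90%, a fall of 1.38 points (SE 0.195, adjusted p = 0.000692). Lamc1 was below Lamb3 in mean mCA in wild type, 3.22 against 4.00%, and neither gene's genotypes overlapped.

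Lamb2, the beta chain of the neuromuscular junction and of vessel and kidney membranes, had the lowest mCA of the 54 genes in both genotypes. It read 0.854, 0.622, 1.19 and 0.755% in wild type and 0.689, 0.545, 0.467 and 0.566% in heterozygotes. The values overlapped, as heterozygous male 1 was above wild-type male 2. The difference of -0.29 points (SE 0.140) did not pass (adjusted p = 0.0877, limma), and it passed without wild-type replicate 2 (-0.37 points, adjusted p = 0.0498). Its wild-type level lay at the 16.0 percentile of all genes, and the next lowest, Col4a5, at the 50.5. Lamb2 was below Lamb1, Lamc1 and Lama5, chains it can assemble with or replace, in 8 of 8 animals each. On the mCG scale it was high, with 85.1% ± 4.16 in wild type (SD, n = 4).

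Because mCA fell in most genes, each gene was also compared with the median gene of its library. Heterozygous cortex kept a median of 55.1% of wild-type mCA over the 54 genes and 56.6% over all genes. The quartiles were 53.97 and 56.3% for the 54 genes, against 53.1 and 61.9% for all genes. These spreads were not compared at equal wild-type mCA, in which 53 of the 54 were above the all-gene median. Of the 54, 48 kept between 50 and 60%. For this count and the next no share of all genes is given. On the log2(percent + 0.1) scale, relative to the library median, 44 of the 54 changed by no more than 0.1 in either direction. None of the 54 passed (smallest adjusted p = 0.639, limma), against 0.00469% of all genes, and 1 was under an unadjusted p of 0.05, against 7.81%. That gene was Col10a1, which kept 36.7%, a relative log2 change of -0.67 (SE 0.215, unadjusted p = 0.0148, limma). Next came Col2a1 with 49.1% and Col1a1 with 49.4%. The largest shares were kept by Lamb2 (66.3%), Col6a2 (63.6%), Col9a2 (62.8%) and Col11a2 (59.6%), a cartilage fibril chain that read 2.24, 2.66, 3.27 and 2.65% against 1.61, 1.65, 1.52 and 1.67%. The Lamb2 means of 0.855 and 0.567% are near the 0.272 to 0.381% read at CC in shallow libraries of 6 of the animals. No background was subtracted, and a constant one would raise the kept share most at low mCA, so the Lamb2 share is uncertain. Wild-type and heterozygous means ranked the 54 genes much alike (Spearman rho = 0.949, Pearson r = 0.943). Both values are over genes in the same 8 libraries and are descriptions without a test.

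**Figure D3:**
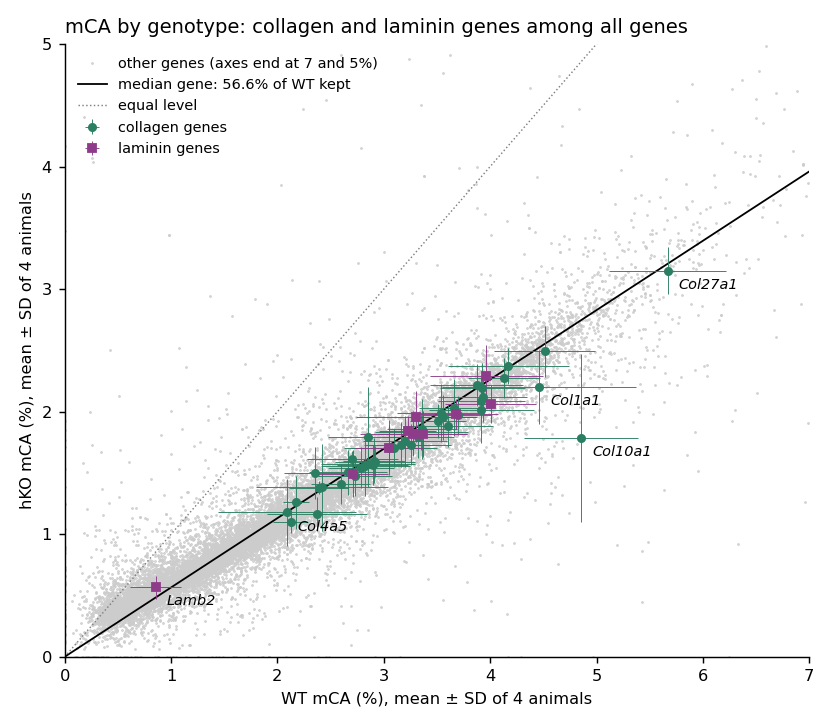
Mean mCA per gene in percent of CA cytosines, wild type on the x axis and heterozygous on the y axis; error bars are SDs of 4 animals, grey points are all other genes within the axes, the solid line marks 56.6% of wild type and the dotted line equality. Collagen and laminin genes lie close to the solid line, with Col10a1 below it and Lamb2 at the lower left.

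The mCG difference between genotypes passed the test in none of the 54 genes. Over these genes mCG averaged 79.2% ± 2.26 in wild type and 76.5% ± 1.91 in heterozygotes (SD, n = 4). The heterozygous mean was lower in 54 of 54 genes, against 84.0% of all genes, with a median difference of -2.65 points against -2.18 over all genes. As a share of the wild-type level, heterozygotes kept a median of 96.7% of mCG, against 55.1% of mCA. With library medians subtracted the mCG difference was negative in 37 of the 54 and in 10133 of all 21060 genes. In males only it was negative in 51 (16095 of all genes), with Col1a1, Col1a2 and Lamb2 positive. In females only it was negative in 52 (17348 of all genes), with Col7a1 and Col20a1 positive. No gene of the 54 passed (smallest adjusted p = 0.476, limma), as 0.0% of 21060 genes did. At an unadjusted p under 0.05 there were 3, against 10.4% of all genes, and in no gene of the 54 were the genotypes without overlap, against 4.94%. The count of 3 was 12 without heterozygous replicate 3 (3533 of all genes, instead of 2195) and 9 without wild-type replicate 2 (3563). It was 1 without heterozygous replicate 4 (1536) and 0 without any other single animal (1116 to 2032). Both heterozygous males lay below both wild-type males in 39 of the 54 (39.8% of all genes), and both heterozygous females below both wild-type females in 35 (43.9%). Adding sex to the model raised the unadjusted count to 22 of the 54 and 4624 of all genes, with still 0 past the adjusted threshold.

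Col8a2 had both the lowest mCG and the largest difference. Its wild-type values were 60.1, 47.05, 53.9 and 56.2% and its heterozygous values 42.2, 44.9, 48.5 and 48.9%, a difference of -8.20 points (SE 3.29, unadjusted p = 0.0313, limma). Wild-type male 2 lay within the heterozygous range. Col17a1 read 80.5, 79.4, 83.5 and 81.8% against 76.1, 76.3, 79.6 and 79.1% (unadjusted p = 0.0475, limma). Col15a1 read 78.7, 75.2, 81.1 and 78.6% against 74.2, 72.2, 76.0 and 75.3% (unadjusted p = 0.0485, limma). The next were Col23a1, with means of 79.3 and 75.5%, and Col4a2, with 76.6 and 72.6%. Apart from Col8a2 and Col2a1 (68.95% in wild type), the other 52 genes lay between 70 and 90% in wild type, up to Col10a1 at 87.7%. Over the 54 genes Pearson r was -0.07 between wild-type mCG and wild-type mCA, given as a description.

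**Figure D4:**
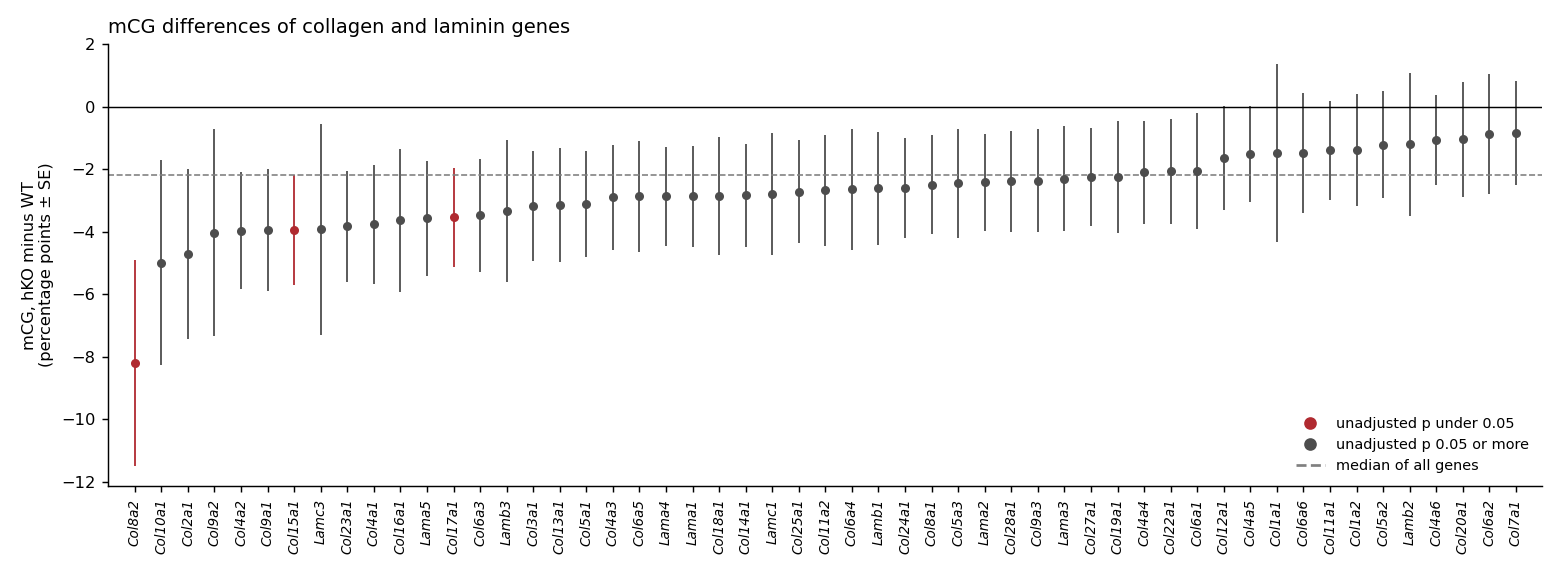
Heterozygous minus wild-type mCG in percentage points with its SE for 53 of the 54 genes, ordered by size; red marks an unadjusted p under 0.05 and the dashed line the median of all genes, -2.18. Every point is below 0, most within about 1 SE of the dashed line, and Col8a2 is the farthest at -8.20.

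mCG was also higher in females in 52 of 52 autosomal genes of the set, by a median of 3.02 points, and lower in Col4a5 and Col4a6, while 9.98% of all genes had a lower female mean. None of the 54 passed for sex (smallest adjusted p = 0.0856, limma), against 0.199% of all genes, and 36 were under 0.05 unadjusted, against 35.0%. That count was 13 without heterozygous replicate 3 (4471 of all genes, instead of 7369) and 14 without heterozygous replicate 2 (4271). It was 16 without wild-type replicate 2 (4505) and 17 without wild-type replicate 3 (4363). The largest was Lamc3, a gamma chain found in cortex and retina, with 66.4 and 69.3% in wild-type males, 78.4 and 80.3% in wild-type females, 67.7 and 65.9% in heterozygous males and 74.5 and 70.7% in heterozygous females. Every female value of Lamc3 was above every male value. The interaction of genotype and sex on mCG passed in none of the 54 (smallest unadjusted p = 0.0848, limma), against 0.0% of all genes, and 0 were under 0.05 unadjusted, against 3.07%. The part of sequencing in this was not tested.

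The genes differ in how many sites they offer. Group totals of methylation in the authors' deposited table, divided by the mean fraction of the group and read as sites per base, give a median of 155 CA per kb over the 54 genes (153 over all genes), from 137 in Col3a1 to 172 in Lamb2. The same quotient from the authors' deposited table gives 22.3 CG per kb (20.4 over all genes), from 9.00 in Col5a2 to 55.03 in Lamb2. Lamb2 was therefore the densest of the 54 in both kinds of site while having the lowest mCA. Across the 54 genes wild-type mCA and CA density had a Pearson r of 0.241 and a Spearman rho of 0.381, given as a description. In the genome 9 pairs of the set adjoin each other, and their median difference in wild-type mCA was 0.208 points, against 0.711 over all 1431 pairs. The spans of 6 genes overlap another coding gene in RefSeq: Col10a1 with Nt5dc1, Col9a3 with Tcfl5, Col4a1 with Col4a2 and Col4a3 with Col4a4, so part of their sites may be counted in both.

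Genes that build, hold and cut these proteins were read in the same fit. Of enzymes and chaperones that modify, fold and cross-link collagen, 25 of 25 measured genes fell (median kept 55.1%), where 72.1% of all genes did and all genes kept a median of 56.6%. Lox-type cross-linker Loxl1 went from 5.16% ± 0.652 to 2.75% ± 0.159 and Plod3, a lysyl hydroxylase, from 0.972% ± 0.216 to 0.612% ± 0.0957 (SD, n = 4). Of basement membrane partners, 11 of 11 fell (median kept 54.5%), among them nidogen Nid2, from 4.82 to 2.77%, and perlecan Hspg2, from 3.80 to 2.12%. Of collagen and laminin receptors, 13 of 15 fell (median kept 55.2%). The integrin chain Itga6 went from 4.51 to 2.52%, while Lair1, a collagen receptor of immune cells, read 0.869 and 0.591% (adjusted p = 0.112, limma) and Sv2a, a synaptic vesicle protein, 0.668 and 0.369% (adjusted p = 0.0513, limma). Of collagen-cutting proteases and their inhibitors, 13 of 13 fell (median kept 53.9%), with Mmp14 from 3.40 to 1.41% and Mmp2 from 4.50 to 2.35%. In no list did mCG pass in any gene.

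Levels of cell type markers give a scale for these values. The 6 measured neuron markers had a median wild-type mCA of 1.23% (range 0.858 to 2.37), and 1 of them was above the all-gene median of 2.07%. The 9 measured genes listed as markers of vascular and fibroblast cells were Pdgfrb, Rgs5, Cspg4, Anpep, Lum, Dcn, Pdgfra, Pecam1 and Flt1. Their median was 3.17% (range 2.38 to 4.44), and 9 of 9 were above the all-gene median. Whether each is specific to those cells was not tested. The collagen and laminin genes had a median of 3.26%, with 53 of 54 above the all-gene median and Lamb2 below it. In heterozygotes 5 of 6 neuron markers and 9 of 9 vascular and fibroblast markers were called lower, with medians of 58.9 and 53.9% kept, beside 72.1% called lower and 56.6% kept over all genes. The part of cell mix in these levels was not tested.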

How the data were processed

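Values came from the authors' deposited table of methylated fractions (0 to 1) of CA and CG cytosines per gene, with 1 column per animal, and were multiplied by 100. BS-Seeker2 and bedtools were used with mm9, per the submitters' processing notes, and versions, coverage filters and gene bounds are not given in the sources used here. The authors' deposited group totals of methylation served only for site density: divided by the mean fraction they gave the same number in both genotypes, within 0.1%, in all 54 genes. Fractions at CC came from the authors' deposited table of shallow libraries. Groups, sexes and age came from the labels.

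Genotypes were compared with limma 3.58.1 in R 4.3.3 (eBayes with trend, two-sided) on percent, with Benjamini-Hochberg adjustment over all genes measured in 8 libraries (21302 for mCA, 21060 for mCG) and a threshold of 0.05. A relative test used log2(percent + 0.1) minus the library median. Sex and its interaction with genotype were fitted as terms. Pseudocounts, filters, scales, covariates, single sexes and left-out animals were tried as alternatives. Other values were computed in Python 3.11.15 with pandas 2.3.3.

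The fits were tested on simulated data with known changes. The members and lists were chosen with earlier results of these data known, so their counts are descriptions beside the share of all genes. The rule for named genes took 29, given by animal or by group mean: the highest and lowest of each structural class by wild-type mCA, the 8 largest mCA falls, the 4 that kept most and the 4 that kept least, genes that did not pass for mCA, the 5 smallest mCG p-values, X-linked genes and head-to-head pairs. Other genes, such as Col1a2, Col3a1, Col5a3, Col6a5, Col25a1, Lamb1 and Lamc3, fall outside that rule and were named after their values were seen. All 54 symbols were found in a GRCm38.p6 gene table from RefSeq, which gave names, chromosomes, neighbours and upstream sequences. No coverage minimum or counting interval could be applied, since the tables used hold no counts. The values of 1 gene of the set are included in counts and summaries and are not reported here singly.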

Additional observations from a re-analysis of the deposited data

Results flagged for a closer look

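Of 120 groups of 4 animals examined, 7 held an animal whose gap to the nearest of the others, as a share of the group's range, was above Dixon's critical value. Chance flags about 5% of such groups. Wild-type female replicate 3 was the high animal for mCA of Col17a1 (3.90% against 3.34 to 3.40% in the others), Col4a4 (3.68% against 2.75 to 2.89%) and Lama2 (3.20% against 2.52 to 2.60%). Heterozygous female replicate 3 was the high animal for mCA of Col4a1 (2.38% against 1.89 to 1.97%) and Col4a4 (2.04% against 1.56 to 1.61%), and for the mean mCA of all 54 genes (2.01% against 1.71 to 1.73%). Heterozygous male replicate 2 was the low animal for mCG of Col27a1 (74.6% against 77.4 to 77.9%).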

How the results depend on the processing

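The count of collagen and laminin genes called lower for mCA ran from 41 to 53 over 16 alternatives and from 52 to 53 when single animals were left out. It was 46 in females only, where Col3a1, Col4a5, Col4a6, Col6a1, Col6a2, Col7a1, Col9a2 and Lamb2 did not pass, and 41 with library medians subtracted. No gene of the 54 passed for mCG or for the relative change under any of the 16 alternatives of each, or for sex in either context under the 8 fits without a replicate, which were chosen after seeing the data. Over all genes, 7841 were lower for mCA in females only and 5283 with library medians subtracted. Leaving out single animals gave 13543 to 16024 lower for mCA and 0 to 1 for mCG, the 1 being without heterozygous replicate 3.

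Subtracting library medians reversed the mCA difference of Lamb2 (0.623 points) and Col6a2 (0.0530), and, among the genes named by rule, the mCG difference of Col1a1 (0.809), Col27a1 (0.0343), Col4a4 (0.191), Col4a5 (0.784), Col4a6 (1.23), Col6a1 (0.234), Col6a2 (1.42) and Lamb2 (1.09). Of all 54 genes 37 then had a negative mCG difference, against 10133 of all 21060 genes. These differences were then measured from the median gene in points, so for mCA a gene as low as Lamb2 comes out higher whatever its own change. When single animals were left out, the mCG difference ranged from -3.49 to 0.687 for Col1a1 and from -1.66 to 0.585 for Col6a2, the positive values being without wild-type replicate 3, and in males only it was 2.27 for Col1a1 and 1.30 for Lamb2. Outside that rule, Col1a2 was positive in males only (0.269) and Col7a1 (0.754) and Col20a1 (0.172) in females only. The relative mCA change was -0.00555 for Col11a2 in females only and -0.18 for Col9a2 in males only. Leaving out single animals gave -0.0104 to 0.263 for Col9a2, the lowest without heterozygous replicate 4. For these the cause was not tested.

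Titles of 3 pairs of animals share a number, and the labels do not say what it marks. Deviations of same-numbered animals from their group means correlated over genes at 0.0369 to 0.114 for mCA and 0.0845 to 0.120 for mCG. Such a correlation leaves out a shift in level shared by all genes. Both animals numbered 651 were the highest of their group for mCG, in 46 and 44 of the 54 genes. Both numbered 046 were the lowest, in 39 and 40, and those numbered 047 were neither in most genes. Whether the number accounts for this was not tested. The main fits did not treat the animals as paired. With the number as a replicate block and the unnumbered animals left out, 53 of the 54 genes were lower for mCA, against 15732 of all 21302. For mCG 0 of the 54 and 0 of all 21060 genes were lower, with 33 and 6024 at an unadjusted p under 0.05 (limma).

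The number of reads behind each gene is unknown, so no counting error is given for low values such as those of Lamb2, and with 4 animals a group the precision of mCG differences is limited by their SE.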
